A study of Mus musculus with 2 samples.

Results

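Interferon-stimulated genes, the antiviral and signalling genes that cells switch on when an interferon binds its receptor, were followed in the mouse cornea before and 24 h after an epithelial wound. The set was a list of 36 gene names, read gene by gene in each deposited cell cluster and each library. Of these, 35 were found among the 20198 genes of the count table, and *Mx2* was not analysed here. Single-cell RNA-seq had been run on 1 library of unwounded corneas (UW) and 1 library of corneas taken 24 h after wounding (W), each pooling 8 corneas of 4 male mice aged 6 to 8 weeks, with no strain given in the sources used here. In the W mice the central epithelium, marked with a 2.5 mm trephine, had been scraped off under anaesthesia and the wound treated with ofloxacin, so the wound, the anaesthesia and the antibiotic cannot be told apart. Corneas of both groups were kept in dispase for 18 h before they were broken into single cells. The authors report assigning cells to mice with the Souporcell algorithm, but cells were not split by animal here.

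Cells that sense viral nucleic acid or damage release interferons. Type I interferons such as interferon beta, and type III interferons, signal through Jak kinases to a complex with Stat2 and Irf9 that binds the interferon-stimulated response element of target promoters, whereas interferon gamma, made mainly by lymphocytes, has a receptor of its own. *Irf7* is both a target and a driver of the programme, and many of the other targets block steps of viral replication.

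The UW library held 16450 cells and the W library 12417, with medians of 22014 and 20290 UMIs (unique molecular identifiers, 1 per captured RNA molecule) per cell, and 52 cell barcodes occurred in both. Levels are given as CPM, the counts of a gene summed over the cells of a cluster per 1000000 UMIs of those cells, from a kit that reads transcript ends, so levels were not divided by length. With 1 library per condition there is no replicate spread and no test was made. A gene is called higher or lower where its CPM differed at least 2-fold between libraries and it had at least 20 counts over both. Where 2 levels of a gene are joined by "and", UW comes before W, and a signed or unsigned number alone in parentheses after them is the log2 ratio of W over UW. Intervals in brackets are exact 95% intervals, Poisson for a level and binomial for a share, and cover counting error only.

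The deposited clusters were checked against markers. Clusters 0 and 10 were stromal, with the keratocan gene *Kera* at 7482 CPM in UW and 2537 CPM in W of cluster 0, and cluster 10 also carried *Myoc* at 442 and 931 CPM. The 10 clusters 1 to 9 and 11 were epithelial. Among them clusters 3, 8, 9 and 11 carried the basal markers *Itgb4* and *Col17a1*, cluster 8 also *Mki67* (504 and 182 CPM), and cluster 9 had little of the corneal keratin *Krt12* (5086 and 1368 CPM against 29083 and 11905 CPM in cluster 3). Clusters 1, 2 and 4 had high *Krt12* and little *Itgb4*, cluster 5 was conjunctival-like (*Krt4* at 3016 and 3291 CPM), and clusters 6 and 7 were superficial, with *Psca* at 39969.6 and 21622 CPM in cluster 7. Clusters 13 to 17 had at most 7 UW cells and are described in W only. They were neutrophil-like (13, *S100a8* at 13612 CPM), monocyte- and macrophage-like (14 and 15, *Lyz2* at 5930.1 and 18605 CPM), T-cell-like (16, *Cd3e* at 358 CPM) and, for the 29 cells of cluster 17, unnamed.

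Letters of the interferon response element were looked for in the 250 bases before the RefSeq start sites (GRCm38.p6) of the 27 genes with an entry. The motif was GAAANNGAAA on either strand, with overlapping matches counted. A match stood before 12 of the 27 genes (44.4%), against 3.46% of the 27025 genes counted in the promoter table, which leave out 1 chromosome. The windows below are read 5′ to 3′ on the strand of the gene and end at the base before the start site, with matched letters in capitals. *Isg15*, *Bst2*, *Rsad2*, *Ifit3* and *Ifit1bl1* are shown because results below turn on them and each holds a match, and *Ddx58* because it was called in no cluster and its window holds none.
Isg15, chr4:156200819-156201068, minus strand: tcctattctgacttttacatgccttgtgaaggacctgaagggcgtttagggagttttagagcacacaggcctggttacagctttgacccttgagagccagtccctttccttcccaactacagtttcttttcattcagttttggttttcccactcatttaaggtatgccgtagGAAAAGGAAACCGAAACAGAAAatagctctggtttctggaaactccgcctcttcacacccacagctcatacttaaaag
Bst2, chr8:71537473-71537722, minus strand: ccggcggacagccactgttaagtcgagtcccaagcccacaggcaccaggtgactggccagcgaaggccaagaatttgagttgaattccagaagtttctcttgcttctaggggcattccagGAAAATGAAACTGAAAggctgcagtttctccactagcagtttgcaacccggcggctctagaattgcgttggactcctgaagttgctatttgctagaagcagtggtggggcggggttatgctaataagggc
Rsad2, chr12:26456453-26456702, minus strand: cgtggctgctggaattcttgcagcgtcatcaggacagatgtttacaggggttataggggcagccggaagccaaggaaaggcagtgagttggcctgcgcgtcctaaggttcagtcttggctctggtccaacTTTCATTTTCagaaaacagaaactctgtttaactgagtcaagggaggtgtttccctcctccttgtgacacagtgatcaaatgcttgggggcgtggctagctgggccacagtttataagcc
Ifit3, chr19:34583279-34583528, plus strand: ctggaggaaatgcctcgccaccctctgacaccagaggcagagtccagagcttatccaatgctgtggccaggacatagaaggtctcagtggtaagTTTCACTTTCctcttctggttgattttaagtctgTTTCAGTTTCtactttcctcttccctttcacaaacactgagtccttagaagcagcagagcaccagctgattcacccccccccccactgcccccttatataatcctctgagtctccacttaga
Ifit1bl1, chr19:34601969-34602218, minus strand: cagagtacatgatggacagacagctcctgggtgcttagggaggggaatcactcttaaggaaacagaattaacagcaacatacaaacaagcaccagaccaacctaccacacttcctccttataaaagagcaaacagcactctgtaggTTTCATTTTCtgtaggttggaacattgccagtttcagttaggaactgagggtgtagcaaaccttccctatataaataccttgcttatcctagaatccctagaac
Ddx58, chr4:40239826-40240075, minus strand: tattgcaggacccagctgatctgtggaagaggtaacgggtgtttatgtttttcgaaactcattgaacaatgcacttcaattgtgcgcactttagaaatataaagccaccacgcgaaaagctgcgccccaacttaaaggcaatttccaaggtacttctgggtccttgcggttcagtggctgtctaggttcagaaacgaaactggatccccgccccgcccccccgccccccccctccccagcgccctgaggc
The capitals of *Isg15* are 3 overlapping matches and those of *Bst2* are 2, all on the strand shown. *Ifit3* holds 2 separate matches and *Rsad2* and *Ifit1bl1* hold 1 each, and these 4 read as TTTCNNTTTC because they lie on the other strand. *Ifit1bl1* has a further start site in the table, which is not shown. No match was found before *Irf7*, *Ifi44*, *Xaf1*, *Ifitm3* or *Lgals3bp*, each called higher in at least 9 of 12 clusters below. That says only that these letters are not in this window. *Stat2*, called in 3 clusters, holds 1 match. The windows shown were picked by result and match together, and whether matches go with the ratios was not tested.

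The median log2 ratio of the set, W over UW, lay above that of all genes in each of the 12 clusters compared. Over the pooled epithelial clusters 21 of 35 genes were higher in W and 1 was lower, with 21.8% of all 16439 genes higher and 8.77% lower, and the median log2 ratio was 1.53 for the set and 0.22 for all genes. In stromal cluster 0, 27 of 35 genes were higher and none lower, with 7.34% of all genes higher and 9.67% lower, and the medians were 2.17 and −0.15. Cells with any UMI of *Ptprc*, *Tyrobp*, *Fcer1g*, *Lyz2* or *S100a8* were then left out, which kept 2087 of 2369 UW and 670 of 1719 W cells of cluster 0. At this setting 24 of 35 genes were higher there and the median was 1.57, and the share of all genes is not given here.

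Among single epithelial clusters, most genes were called in basal cluster 3 and in the *Krt12*-rich cluster 4. Cluster 3 had 29 of 35 genes higher with a median log2 ratio of 3.35 (15.1% of all genes higher and 11.1% lower), and cluster 4 had 30 of 35 with a median of 2.93 (13.8% and 13.5%). Cluster 1 had 25 of 34 genes higher (14.7% of all genes higher and 11% lower) and cluster 2 had 28 of 35 (13.2% and 13.1%). The dividing cells of cluster 8 had 24 of 35 genes higher (10.8% of all genes higher and 9.58% lower) and basal cluster 11 had 24 of 34 (12.7% and 9.33%). Superficial cluster 6 had 22 of 35 (17.2% and 9.58%) and cluster 7 had 27 of 35 (23.2% and 6.48%), and none of the set was lower in any of these 8 clusters. Fewest were called in conjunctival-like cluster 5, with 18 of 35 higher and 1 lower (12.7% and 7.47% of all genes), in *Krt12*-poor cluster 9, with 18 of 34 higher and 1 lower (9.12% and 9.76%), and in stromal cluster 10, with 15 of 34 higher and none lower (4.97% and 6.63%).

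**Figure D1:**
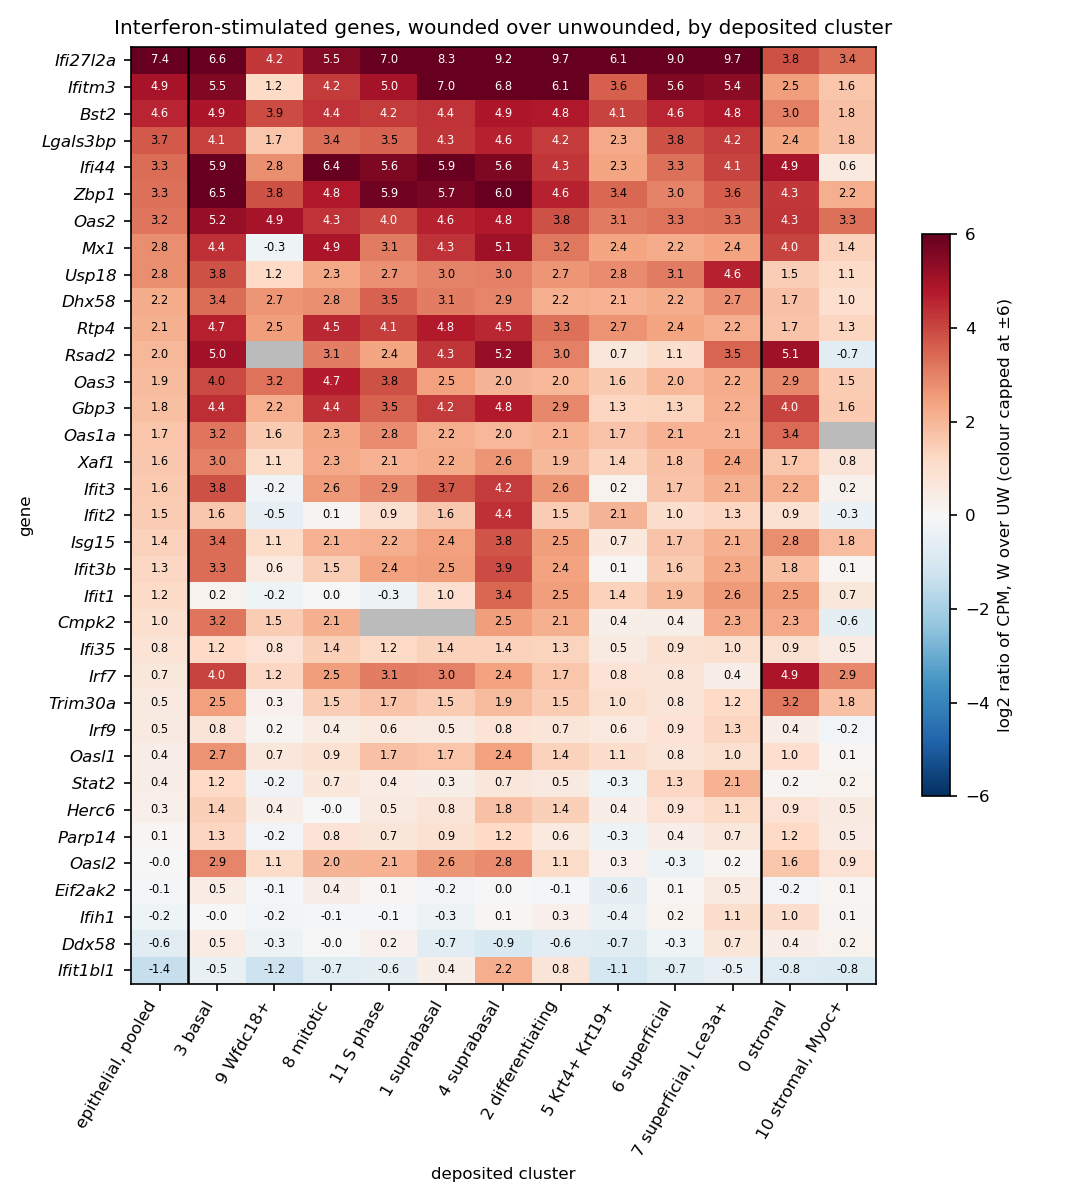
Log2 ratio of CPM in W over UW (colour, capped at 6 either way, and printed value) for 35 interferon-stimulated genes (rows) in the pooled epithelial clusters and 12 deposited clusters (columns), 1 library per condition, with grey where fewer than 20 counts were found. *Ifi27l2a*, *Ifitm3*, *Bst2* and *Lgals3bp* are at least 2-fold higher in W in every column, and *Ddx58* and *Eif2ak2* are called in none.

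Of the 35 genes, 14 were higher in W in all 10 epithelial clusters and 11 in all 12 clusters. Among all genes with at least 20 counts in each cluster, 178 of 10062 (1.77%) were higher in all 10 and 105 of 9709 (1.08%) in all 12, and 33 and 32 of the set met that minimum. These 11 were *Ifi27l2a*, *Ifitm3*, *Bst2*, *Lgals3bp*, *Zbp1*, *Dhx58*, *Oas2*, *Oas3*, *Usp18*, *Rtp4* and *Gbp3*. Of the 35, *Ddx58* and *Eif2ak2* were called in no cluster, and *Ifit1bl1* was the one gene called lower anywhere. Superficial clusters 6 and 7 made up 22.5% [21.8 to 23.3] of epithelial cells in UW and 13.9% [13.1 to 14.6] in W, so pooled epithelial values also carry this shift. With each epithelial cluster weighted equally, 26 of 35 genes were higher and the median log2 ratio was 2.11, without the share of all genes beside them.

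Genes of membrane and secreted proteins differed most over the pooled epithelium. *Ifi27l2a*, a small membrane protein induced by type I interferon (chr12:103442167-103443680), was at 3.98 CPM in UW and 674 CPM in W, a log2 ratio of 7.405 that was 6.54 with clusters weighted equally. It lay between 0.579 and 32.6 CPM across the epithelial clusters of UW and between 493 and 921 CPM in W, so these ranges over clusters did not overlap. The clusters of a library are parts of 1 pool and not replicates, and the share of all genes with such separate ranges was not counted. In cluster 0 it was at 97.5 CPM in UW and 1374 CPM in W. After thinning each cell to 5000 UMIs it was found in 3.92% of UW and 83.2% of W cells of cluster 3.

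*Ifitm3*, which hinders the fusion of viruses with endosomal membranes (chr7:141009586-141010770), was at 52.03 CPM in UW and 1596 CPM in W over the epithelium, a log2 ratio of 4.94 that was 3.45 with clusters weighted equally. Cluster 9 stood out in UW. *Ifitm3* was at 981 CPM in UW and 2215 CPM in W of cluster 9 (1.18) and at 11.04 CPM in UW and 1441 CPM in W of cluster 1 (7.03). It was found in 94.8% of UW and 99.9% of W cells of cluster 9 and in 5.95% of UW and 96.1% of W cells of cluster 1 after thinning. Of the 50-base stretches at the end of its transcripts, 13.97% also occur in *Ifitm1*, *Ifitm2* or pseudogenes, so part of its counts is uncertain.

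*Bst2* (tetherin), which holds budding virus at the cell surface, was at 4.65 CPM in UW and 109 CPM in W of the pooled epithelium (4.56). Its log2 ratio ranged from 3.90 in cluster 9 to 4.88 in cluster 3, and no W level of an epithelial cluster reached down to a UW level. In cluster 0 it was at 114 CPM in UW and 917 CPM in W. *Lgals3bp*, a secreted glycoprotein that binds galectin 3, was at 2.34 CPM in UW and 30.3 CPM in W of the epithelium (3.69) and at 38.6 CPM in UW and 200.2 CPM in W of cluster 0 (2.38). Both genes stood higher in cluster 0 than in the pooled epithelium in each library.

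Free RNA from broken cells can add counts of a gene to droplets of other cells. In W, the stromal genes *Dcn*, *Lum*, *Kera* and *Col1a1* stood in the epithelial clusters at 0.456% to 1.43% of their highest level in any cluster. The myeloid genes *Tyrobp* and *Lyz2* stood there at 0.057% to 0.37%, and *S100a8* at 0.476% to 2.12%. *Ifi27l2a* stood there at 23.9% to 44.7% of its highest level, *Ifitm3* at 11.6% to 44.6% and *Bst2* at 6.91% to 21.9%. Other genes of the set came down, in their lowest epithelial cluster, to the range of these marker genes other than *S100a8*. Examples were *Rsad2* at 0.253%, *Ifit1bl1* at 0.351%, *Cmpk2* at 0.695%, *Ifit2* at 1% and *Oasl1* at 1.22%. *Mx1* at 1.74%, *Ifit3b* at 1.79% and *Isg15* at 1.94% fell within the range of *S100a8* alone. In cluster 11 of W, *S100a8* was at 288 CPM beside 2.16 CPM of *Tyrobp*, against 13612 and 3414 CPM in cluster 13. Whether epithelial cells made *S100a8* was not tested, and neither was the part of free RNA in the low values of the set. The sum of 16 immune markers over clusters 0 to 11 ranged from 10.3 to 623 CPM in UW and from 123 to 1167 CPM in W, against 11877 to 41430 CPM in clusters 13 to 15. Without *S100a8* and *S100a9* it ranged from 4.91 to 468 CPM in UW, where the highest value was mostly *Itgam* in cluster 7 (466 CPM), and from 20.2 to 262 CPM in W. The dendritic marker *Flt3* was at 0 in all 12 UW clusters. The sum of all 16 markers was higher in W than in UW in all 12 clusters. Without *S100a8* and *S100a9* it was lower in W of cluster 7 (468 and 262 CPM) and near level in cluster 5 (58.9 and 60.3 CPM). The part of immune RNA in the ratios was not tested beyond leaving out cells with immune UMIs. That kept 13098 of 13501 UW and 2549 of 8507 W epithelial cells. It gave 22 of 35 genes higher in the epithelium with a median of 1.76, and the share of all genes is not given here. *S100a8* counted as an immune UMI in this step, and it was found in 70.6% of W cells of cluster 11.

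**Figure D2:**
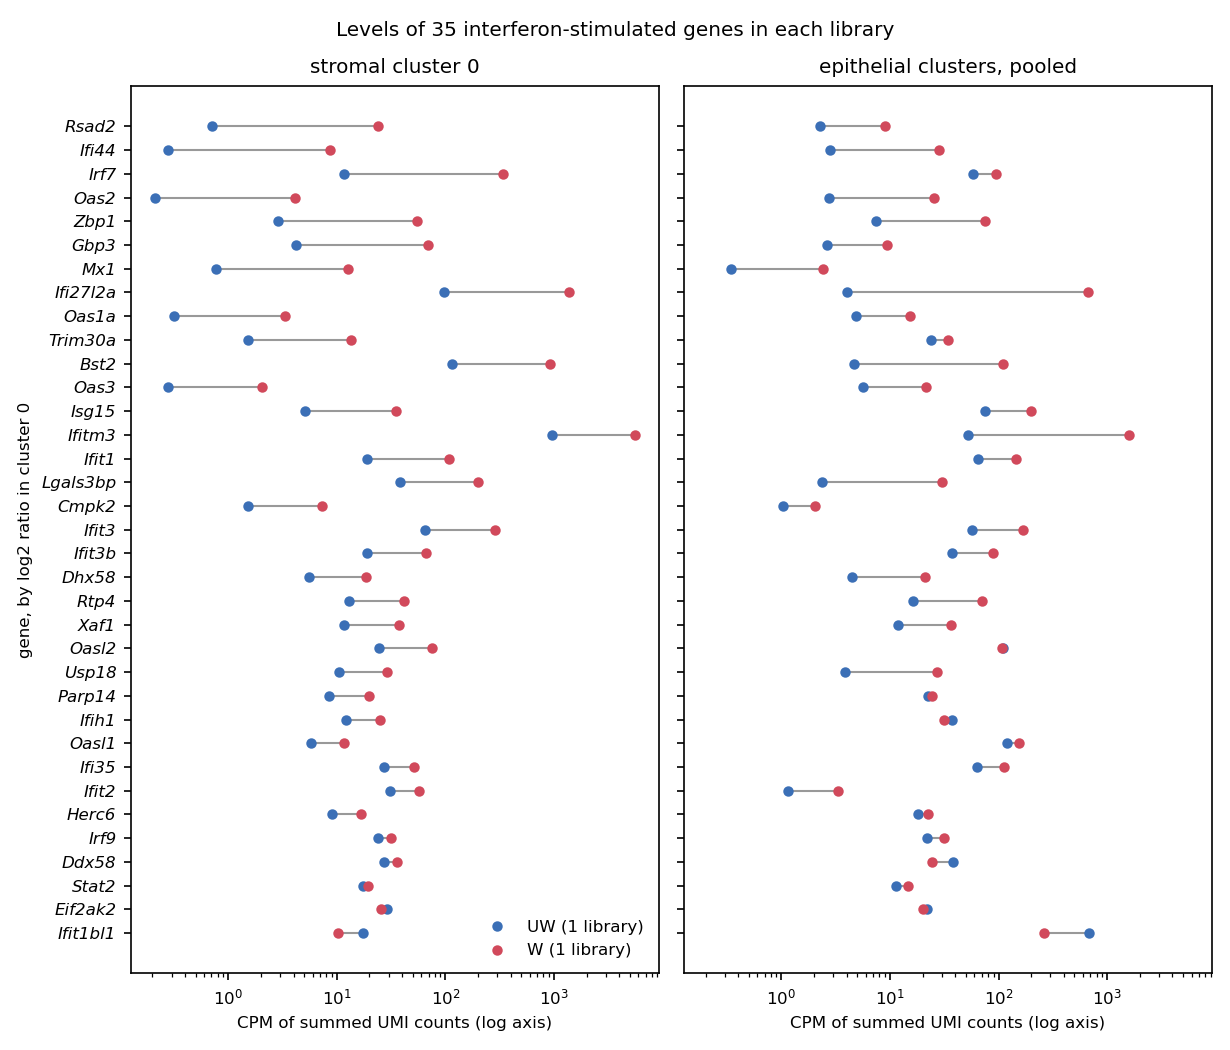
CPM of summed UMI counts (log axis) of 35 interferon-stimulated genes in UW and W, 1 library each, in stromal cluster 0 and in the pooled epithelial clusters. In cluster 0 the libraries lie farthest apart for *Rsad2* and *Ifi44*, and in the epithelium for *Ifi27l2a* and *Ifitm3*, while *Ifit1bl1* lies lower in W in both.

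Among the transcription factors, *Irf7* had a larger ratio than *Irf9* and *Stat2* in clusters 0 and 3, and a smaller one than *Stat2* in clusters 6 and 7. In cluster 0 *Irf7* was at 11.6 CPM in UW and 342 CPM in W (log2 ratio 4.88), and it was found in 4.70% of UW and 57.8% of W cells after thinning. In basal cluster 3 it was at 7.69 CPM in UW and 127 CPM in W (4.04). Cluster 7 already held 247 CPM in UW and had 324 CPM in W (0.39). Over the pooled epithelium *Irf7* was at 58.5 and 95 CPM and not called, although it was called higher in 7 of 10 epithelial clusters. *Irf9* and *Stat2* are partners in the complex that carries the type I signal. *Irf9* was at 21.9 and 31.6 CPM in UW and W of the epithelium and was called in cluster 7 alone of the 12 (29.4 and 71.4 CPM). *Stat2* was at 11.2 and 14.6 CPM and was called in clusters 3, 6 and 7, with 5.76 and 24.6 CPM in cluster 7.

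*Isg15*, a ubiquitin-like protein that is attached to other proteins, was called higher in 9 of 10 epithelial clusters. It was at 10.98 CPM in UW and 113 CPM in W of cluster 3, at 22.1 CPM in UW and 300.4 CPM in W of cluster 4 and at 244 CPM in UW and 1055 CPM in W of cluster 7, its highest level in each library. In conjunctival-like cluster 5 it was at 40.3 and 63.3 CPM. *Usp18*, the protease that removes Isg15 and dampens the type I receptor, was at 3.88 CPM in UW and 27.01 CPM in W of the epithelium (2.80), with its largest ratio in cluster 7 (2.26 and 54.7 CPM, 4.60). *Herc6*, the ligase that attaches Isg15 in mice, was called in 4 epithelial clusters and was mainly a surface transcript, at 77.4 and 171 CPM in cluster 7 against 4.00 and 10.8 CPM in cluster 3.

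The Ifit genes, whose proteins bind foreign RNA, lie side by side on chromosome 19, and they did not move as one. *Ifit3* was at 57.3 CPM in UW and 169 CPM in W of the epithelium (1.56) and at 64.3 CPM in UW and 289 CPM in W of cluster 0 (2.17). *Ifit3b*, with which *Ifit3* shares 14.9% of its end stretches, was at 37.1 and 88.8 CPM in the epithelium and 18.9 and 66.01 CPM in cluster 0. *Ifit1* was called in 5 of 10 epithelial clusters. It was near level in cluster 3 (88.7 and 102 CPM) and cluster 9 (24.7 and 20.8 CPM), but stood at 29.04 CPM in UW and 312 CPM in W of cluster 4. *Ifit2* was at 1.15 and 3.31 CPM in the epithelium (1.53, but 0.62 and not called with clusters weighted equally) and 30.8 and 57.4 CPM in cluster 0.

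*Ifit1bl1* stood apart from the other genes. It was a surface transcript, at 1749 CPM in UW and 1062 CPM in W of cluster 6 and at 3408 CPM in UW and 2407 CPM in W of cluster 7, and these clusters held 88.8% of its epithelial counts in UW and 71.8% in W. Over the pooled epithelium it was at 676 CPM in UW and 259.7 CPM in W, a log2 ratio of −1.38 that was −0.55 with clusters weighted equally and −0.999 without cells with immune UMIs, neither of them called. It was called lower in cluster 5 (569 and 271 CPM) and cluster 9 (19.96 and 8.44 CPM) and higher in cluster 4 (16.7 and 75.95 CPM). In UW clusters 0, 1, 3, 4 and 8 to 11 it lay between 16.7 and 19.96 CPM, at 1.55 to 2.43 times the level of *Lce3a*, a gene of cluster 7, where that ratio was 1.37. The part of free RNA in these low values was not tested. *Ifit1bl1* shares 9.09% of its end stretches with *Ifit1bl2*.

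The oligoadenylate synthetases sense double-stranded RNA and switch on RNase L. *Oas2* was called higher in all 12 clusters, at 2.75 CPM in UW and 25.5 CPM in W of the epithelium (3.21). *Oas3* was at 5.66 and 21.3 CPM and *Oas1a* at 4.83 and 15.4 CPM there, and 56.1% of the end stretches of *Oas1a* are shared with *Oas1g*, so its counts are uncertain. The related *Oasl1* and *Oasl2* were surface transcripts with smaller pooled ratios. *Oasl1* was at 373 CPM in UW and 629.8 CPM in W of cluster 6 and at 9.55 CPM in UW and 62.1 CPM in W of cluster 3. *Oasl2* was at 394 CPM in UW and 324 CPM in W of cluster 6 and at 11.2 CPM in UW and 83.95 CPM in W of cluster 3. Pooled over the epithelium *Oasl2* was at 109.8 and 107 CPM, while 7 of 10 clusters were called higher, and the sign of its pooled ratio turned under some settings.

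The antiviral GTPase *Mx1*, which traps viral nucleocapsids, was at 0.342 CPM in UW and 2.40 CPM in W of the epithelium (2.81) and at 0.773 CPM in UW and 12.8 CPM in W of cluster 0 (4.05, but 3.32 without cells with immune UMIs). In cluster 9 it was at 0.919 and 0.763 CPM. *Gbp3*, a guanylate-binding protein, was at 4.22 CPM in UW and 69.8 CPM in W of cluster 0 (4.05).

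The sensors of nucleic acid divided into genes called higher in W and genes not called over the pooled epithelium. *Zbp1*, which binds Z-form nucleic acid and can trigger necroptosis, was at 7.43 CPM in UW and 74.6 CPM in W of the epithelium (3.33), with its largest ratio in cluster 3 (0.854 and 75.6 CPM, 6.47). *Dhx58* (LGP2), a helicase that tunes the RNA sensors, was at 4.48 CPM in UW and 20.99 CPM in W of the epithelium (2.23). The RNA sensors themselves were not called there. *Ddx58* (RIG-I) was at 37.8 and 24.1 CPM, with log2 ratios from −0.89 in cluster 4 to 0.74 in cluster 7. Its W level was above the UW level in 3 of 10 epithelial clusters. *Ifih1* (MDA5) was at 37.1 and 31.3 CPM and was called in cluster 7 (17.6 and 37.2 CPM) and cluster 0 (12.1 and 24.9 CPM), where the call was lost without cells with immune UMIs (0.78). *Eif2ak2* (PKR), the kinase that halts translation on sensing viral RNA, was at 21.96 and 20.3 CPM in the epithelium and 28.9 and 25.4 CPM in cluster 0. The signs of the pooled ratios of *Ifih1* and *Eif2ak2* turned under some settings.

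Among the other effectors, *Rsad2* (viperin), which makes a chain-terminating nucleotide, had the largest ratio of the set in cluster 0. It was at 0.703 CPM [0.429 to 1.09] in UW and 23.9 CPM [22.3 to 25.7] in W, a log2 ratio of 5.09 that was 4.01 without cells with immune UMIs, then below *Irf7* (4.78), *Ifi44* (4.64) and *Oas2* (4.22). *Cmpk2*, a nucleotide kinase gene next to it, was at 1.51 and 7.33 CPM there. *Ifi44* was at 0.281 CPM in UW and 8.60 CPM in W of cluster 0 (4.93) and at 2.81 CPM in UW and 28.5 CPM in W of the epithelium (3.34). *Rtp4*, a chaperone of membrane receptors, was at 2.53 CPM in UW and 65.2 CPM in W of cluster 3 and at 72.8 CPM in UW and 326 CPM in W of cluster 7. *Xaf1*, a promoter of apoptosis, was at 11.8 and 36.6 CPM in the epithelium and *Trim30a* at 23.7 and 34.4 CPM, while *Trim30a* was at 1.51 and 13.6 CPM in cluster 0. *Ifi35* was at 63.1 and 111 CPM in the epithelium, and *Parp14*, an ADP-ribosyltransferase, at 22.5 and 24.4 CPM.

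In UW the set was already graded from the base to the surface of the epithelium. In superficial cluster 6 against basal cluster 3, 25 of 35 genes were at least 2-fold higher and 2 lower, where 12.8% of all genes were higher and 47.3% lower. The median log2 ratio was 2.44 for the set and −0.90 for all genes. Cluster 7 against cluster 3 had 22 higher and 2 lower (11.9% and 66% of all genes), with medians of 2.49 and −1.90. *Irf7* stood at 7.69 CPM in cluster 3, 119 in cluster 6 and 247 in cluster 7, and *Isg15* at 10.98, 199 and 244 CPM. The genes lower at the surface were *Ifi27l2a* (8.63, 1.38 and 0.579 CPM) and *Ifitm3* (53.5, 16.8 and 26.5 CPM).

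In W the median of this gradient was smaller. Cluster 6 against cluster 3 had 18 of 35 genes higher and 1 lower (10% and 46.7% of all genes), with a median log2 ratio of 1.18, and cluster 7 had 22 higher and 1 lower (9.34% and 63.9%), with a median of 1.58. The ratio of W over UW was larger in cluster 3 than in cluster 6 for 29 of 35 genes, by at least 1 on the log2 scale for 19, and smaller by at least 1 for 2. Of 11305 genes tested in both, it was larger in cluster 3 for 48.9%, by at least 1 for 8.91%, and smaller by at least 1 for 13.2%. The summed level of the 33 genes other than *Ifitm3* and *Ifi27l2a* was 5251 CPM in UW and 7926 CPM in W of cluster 7, against 341 and 1598 CPM in cluster 3. *Ifit1bl1*, which moved against the set, alone gave 3408 and 2407 CPM of the cluster 7 sums and 17.1 and 12.4 CPM of those in cluster 3. The sums of cluster 7 therefore understate how far the other genes differed between libraries. Whether a cluster holds the same kind of cells in both libraries was not tested.

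**Figure D3:**
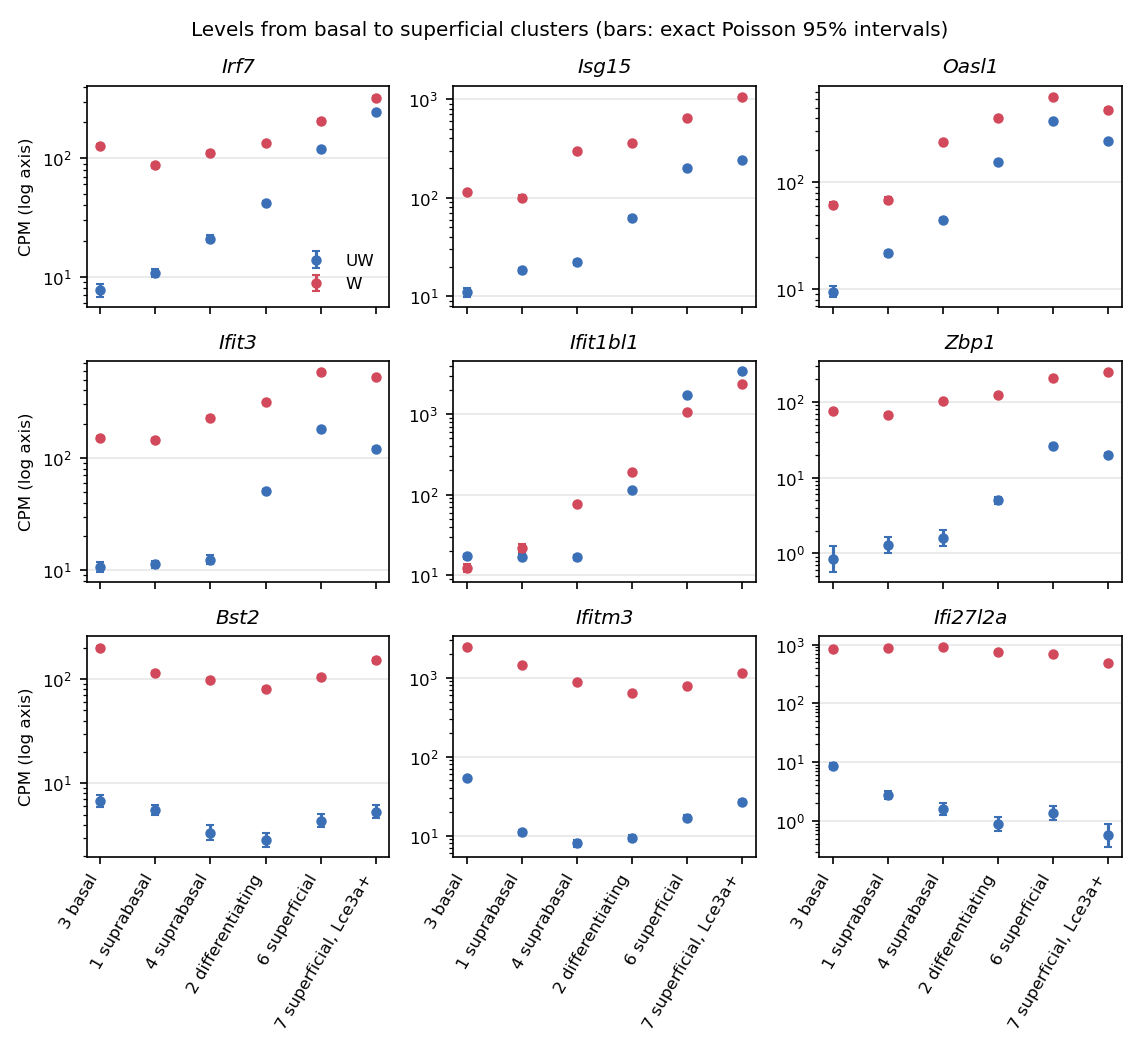
CPM (log axes, exact Poisson 95% intervals) of 9 interferon-stimulated genes in UW and W, 1 library each, in epithelial clusters 3, 1, 4, 2, 6 and 7, placed from basal to superficial by their markers. In UW *Irf7*, *Isg15*, *Oasl1*, *Ifit3*, *Ifit1bl1* and *Zbp1* stand highest in cluster 6 or 7, and the W points of *Bst2*, *Ifitm3* and *Ifi27l2a* lie above all their UW points.

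Cluster 9, with basal markers and little *Krt12*, had smaller ratios than basal cluster 3 for all 34 genes tested in both, by at least 1 on the log2 scale for 23, with a median difference of 1.87. Over 12020 genes tested in both, 53.3% had the smaller ratio in cluster 9, by at least 1 for 11.8%, and the median difference was 0.05. *Irf7* was at 8.67 CPM in UW and 20.5 CPM in W of cluster 9, *Isg15* at 9.45 and 20.4 CPM and *Ifit3* at 22.98 and 19.7 CPM. *Ifi27l2a* (32.6 and 613 CPM), *Bst2* (5.38 and 80.4 CPM) and *Zbp1* (0.657 and 9.24 CPM) were called higher there. The summed level of the 33 genes was 283 CPM in UW and 494 CPM in W, the lowest W sum among the clusters listed.

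The stromal clusters differed likewise. The ratio was larger in cluster 0 than in cluster 10 for 32 of 34 genes, by at least 1 on the log2 scale for 14, with a median difference of 0.92. Over 12298 genes, it was larger in cluster 0 for 45.8%, by at least 1 for 3.24%, and the median difference was −0.03. *Rsad2* was at 11.6 CPM in UW and 7.33 CPM in W of cluster 10, *Ifi44* at 2.28 and 3.37 CPM and *Ifit3* at 79.2 and 93.8 CPM. *Ifitm3* was at 968 CPM in UW and 3019.9 CPM in W of cluster 10 and *Ifi27l2a* at 104 and 1064 CPM, both called higher.

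The number of genes found per cell was counted after thinning each cell to 5000 UMIs, over the 33 genes without *Ifitm3* and *Ifi27l2a*. In cluster 0 the median cell carried 2 genes in UW and 5 in W, and cells with at least 5 made up 9.53% [8.37 to 10.8] of 2318 UW cells and 60.1% [57.7 to 62.4] of 1708 W cells. In cluster 3 the medians were 1 and 5, with 2.17% and 57.3% of cells at 5 or more, and cells with none of the genes made up 27.3% and 2.43%. Superficial clusters 6 and 7 had medians of 6 in UW and 12 in W. Cluster 9 had medians of 1 and 2, with 2.18% [1.09 to 3.86] and 9.79% [7.97 to 11.9] of cells at 5 or more. Between 6 and 92 cells of a cluster and library had fewer than 5000 UMIs and were left out.

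**Figure D4:**
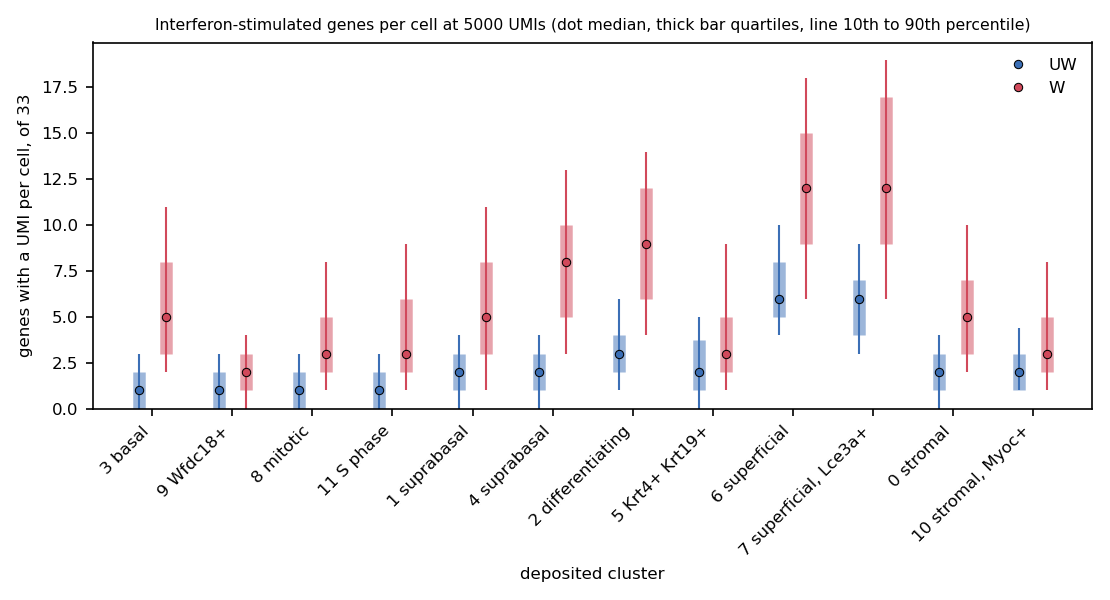
Number of interferon-stimulated genes with a UMI per cell, of 33, after thinning each cell to 5000 UMIs, by deposited cluster and library, shown as the median, the quartiles and the 10th to 90th percentile of cells. The W median is above the UW median in all 12 clusters, with 1 and 2 in cluster 9 and 6 and 12 in superficial clusters 6 and 7.

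Counts of the set were also found in the immune-like clusters 13 to 16 of W. The corneal keratin *Krt12* stood at 3584, 6048, 1247 and 2106 CPM in clusters 13 to 16, against 28424 CPM in epithelial cluster 2. The part of RNA from epithelial cells in the levels of the set there was not tested. *Ifitm3* was the highest gene of the set in neutrophil-like cluster 13 (2404 CPM) and in monocyte- and macrophage-like clusters 14 and 15 (3005 and 4633 CPM). In T-cell-like cluster 16 it was *Ifi27l2a*, at 1182 CPM. *Rsad2* was at 269.7 CPM in cluster 13, its highest level in any W cluster, against 0.683 to 61.1 CPM across the epithelial clusters. *Irf7* and *Mx1* were highest in cluster 15, at 479.7 and 43.9 CPM. Over all W clusters, 14 genes had their highest level in superficial cluster 7, 6 in the 29 cells of cluster 17, 5 each in clusters 6 and 15, 3 in cluster 0 and 1 each in clusters 10 and 13. The share of all genes highest in each cluster was not counted, so these numbers have no background. Cluster 17 was unnamed, with the stromal *Kera* at 2598 CPM beside immune markers. Of these *S100a8* was at 1578 CPM, *Lyz2* at 531 CPM, *Tyrobp* at 476.5 CPM and *Ptprc* at 39.4 CPM. The highest gene of the set in cluster 17 was *Ifitm3* (5187 CPM).

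The interferon genes were found in few cells. *Ifnb1*, which encodes interferon beta, had 13 counts in 9 of 16450 UW cells. In W it had 66 counts in 14 of 354 cells of cluster 14 (3.95% [2.18 to 6.55]) and 101 counts in 10 of 251 cells of cluster 15 (3.98% [1.93 to 7.21]). It was found in 10 of 8507 epithelial W cells (0.118% [0.0564 to 0.216]), whose median of 25553 UMIs was above the 8724 and 10144 of clusters 14 and 15. *Ifng*, which encodes interferon gamma, was found in 42 of 215 cells of cluster 16 (19.5% [14.5 to 25.5]) and in 5 of 8507 epithelial W cells (0.0588%). It was found in 0 of 16450 UW cells, which allows a share of cells with a UMI of up to 0.0182% and does not limit the share that express it. *Ifnl3*, a type III interferon, had 13 counts in 3 epithelial W cells. With at most 7 UW cells in each immune cluster, their levels before wounding are not known from these libraries.

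**Figure D5:**
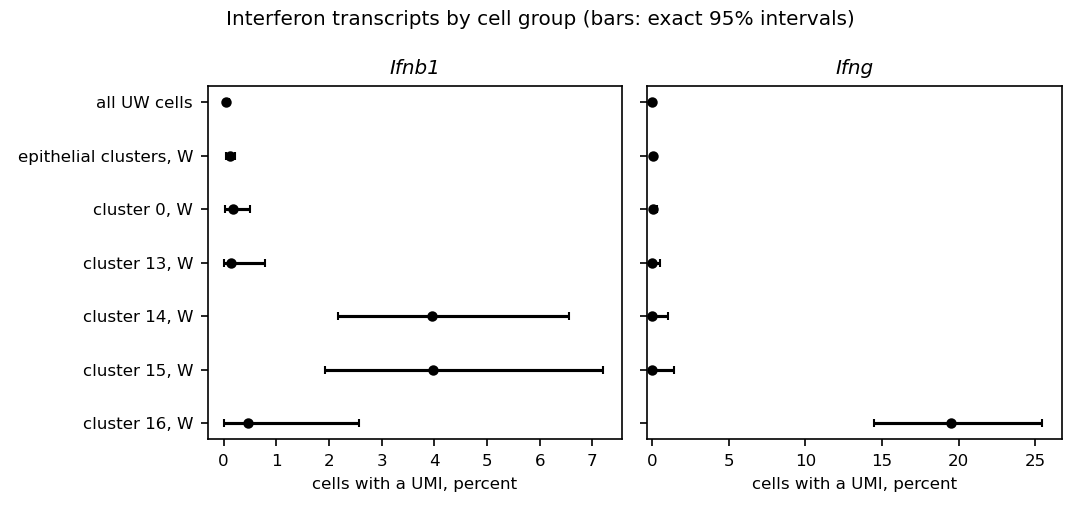
Share of cells with a UMI of *Ifnb1* and *Ifng*, in percent with exact binomial 95% intervals, in all UW cells and in groups of W cells. *Ifnb1* was found in 3.95% and 3.98% of cells of clusters 14 and 15, and *Ifng* in 19.5% of cells of cluster 16.

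Other genes of the pathway were counted over lists of receptors, sensors and adaptors, inhibitors and targets of interferon gamma. In the pooled epithelium 1 of 6 receptors was higher (*Ifnar2*, a chain of the type I receptor, 6.72 and 17.01 CPM), with 2 of 6 sensors and adaptors (*Aim2* and *Tmem173*), 1 of 5 inhibitors (*Irf2bp2*) and 8 of 12 targets of interferon gamma, where 21.8% of all genes were higher. In cluster 0 it was 3 of 6 receptors, 1 of 5 sensors and adaptors, 0 of 5 inhibitors and 10 of 10 targets of interferon gamma, where 7.34% of all genes were higher. *Socs3*, an inhibitor that many cytokines induce, was the one gene of these lists lower in each, at 243 CPM in UW and 69.1 CPM in W of the epithelium (−1.82) and at 466 CPM in UW and 184 CPM in W of cluster 0 (−1.34).

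*Irf1*, a factor induced by interferon gamma, was at 179 and 108 CPM in the epithelium and 41.9 and 93.6 CPM in cluster 0 (1.16). The chemokine *Cxcl10* was at 5.07 and 9.35 CPM in the epithelium, at 3.16 CPM in UW and 126 CPM in W of cluster 0 (5.32) and at 18.2 and 286 CPM in cluster 10, but was lower in W in cluster 3 (13.4 and 5.76 CPM). *Gbp2*, a GTPase, was at 39.5 and 47.5 CPM in the epithelium and 4.43 and 133 CPM in cluster 0 (4.91). *Cxcl9* had no counts in UW of cluster 0 and 5405 in W, which set against 3 counts over the cluster is at least 1579-fold higher.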

How the data were processed

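The authors aligned reads with Cell Ranger 3.1.0 and filtered, integrated and clustered cells in Seurat 3.2.2, with doublets called by DoubletFinder 2.0.3. The labels name genome mm9 and the methods mm10, and they also name different kit versions. The deposited table holds raw UMI counts per gene and cell, and the deposited cell table made by the authors gives each cell's library, cluster and doublet calls, with the deposited clusters used unchanged. The genes and lists were chosen with earlier results of these data known. All genes of the set could be named, with values in both libraries for the 8 largest and 4 smallest pooled epithelial ratios.

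Counts were summed per cluster and library (Python 3.11.15, numpy 2.4.6, pandas 2.3.3, scipy 1.17.1). Both libraries entered each comparison, called at 2-fold among genes with at least 20 counts. A library at 0 was set to 3 counts over the cluster. For thinning, 5000 UMIs were drawn per cell without replacement. Scaling factors for the alternatives came from edgeR 4.0.16 and DESeq2 1.42.0 in R 4.3.3. On simulated counts for the pooled epithelium (15901 genes), 200 of 200 changed genes and 121 unchanged genes were called. The changed genes were well-counted ones given folds beyond the calling limit, and counts were Poisson draws without spread between libraries. Their recovery was thus largely set in advance and says little about real libraries. Positions are from GENCODE M21 and promoters from RefSeq, with sequence matches at transcript ends over the last 500 bases. *Mx2* was not analysed here, and the list of signalling genes is not reported here.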

Additional observations from a re-analysis of the deposited data

Results flagged for a closer look

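*Ifit1bl1* went opposite ways in different epithelial clusters. Its log2 ratio of W over UW was 2.19 in cluster 4, −1.07 in conjunctival-like cluster 5 and −1.24 in *Krt12*-poor cluster 9. In cluster 9 it was at 19.96 CPM in UW and 8.44 CPM in W beside 10.77 and 3.897 CPM of *Lce3a*, a gene of cluster 7, which is 1.85 and 2.16 times its level, and the part of free RNA in this ratio was not tested. The difference between clusters was not tested, since each condition is 1 library.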

How the results depend on the processing

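No paired analysis was possible because each condition is 1 pooled library without replicate numbers, and for the same reason no library could be left out. The numbers of genes higher in W stayed within 1.5 times the reported ones under every alternative run, from 20 to 26 of 35 in the pooled epithelium and from 24 to 30 of 35 in cluster 0. The shares of all genes under these alternatives are not given here. The median log2 ratio over the epithelium (1.53) was 1.325 with TMM factors, 1.32 with median-of-ratios size factors, 1.845 as mean CPM of cells, 1.79 after thinning to 5000 UMIs, 1.76 without cells with immune UMIs and 2.11 with clusters weighted equally. In cluster 0 (2.17) it was 1.92 after thinning and 1.57 without cells with immune UMIs. TMM factors moved the median of all genes by −0.205 in the epithelium, 0.151 in cluster 0, 0.121 in cluster 2, 0.114 in cluster 4 and −0.258 in cluster 7 (log2). Of the single-gene values, 332 stayed within the counting interval of the reported ratio and 262 did not, with no called gene changing sign. Calls lost were *Ifit1* in the epithelium with either scaling (0.96), *Ifit2* and *Ifit1bl1* there as given above, and *Oasl1*, *Ifih1* and *Parp14* in cluster 0 without cells with immune UMIs (0.62, 0.78 and 0.89), the first pair also as mean CPM of cells and after thinning. With clusters weighted equally *Irf7*, *Oasl1*, *Ifi35*, *Trim30a*, *Cmpk2* and *Herc6* were called higher, at 1.03 to 1.73, and *Zbp1* and *Ifi44* were at 3.94 and 3.96. The uncalled *Parp14*, *Oasl2*, *Ifih1* and *Eif2ak2* changed sign in the pooled epithelium under at least 1 setting, and the cause was not tested. Depth limits genes under 20 counts, which were *Cmpk2* in clusters 1 and 11, *Rsad2* in cluster 9 and *Oas1a* in cluster 10.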
